A study of Mus musculus with 50 samples.

Results

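The replication-dependent histone genes of the mouse were followed through RNA-seq of embryonic whole brain carrying mutant alleles of Gtf2i or Gtf2ird1, genes for related transcription factors. Members were chosen by name: all rows of the count table whose gene symbol began with Hist1h, Hist2h, Hist3h or Hist4h were taken, which gave 56 of 11708 genes: 5 for H1, 14 for H2a, 16 for H2b, 9 for H3 and 12 for H4. No measured value entered that choice, but the family was taken up with earlier results of these data known, so counts over its members are descriptions. The brains were dissected at E13.5 from strain FVB/ANTJ, and a cross of each mutant line was represented by 9 libraries. In the gtf2i cross 3 libraries each were labelled wt, gtf2i (heterozygous) and gtf2i/gtf2i (homozygous), and in the ird1 cross 3 each were labelled wt, ird1 and ird1/ird1. The wt groups carried no labelled mutant allele and were separate for each cross. The labels give no sex, no litter, no molecular description of either allele and no statement of whether a library came from 1 embryo or a pool.

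Replication-dependent histone genes supply the linker histone H1 and the core histones H2A, H2B, H3 and H4 that package newly copied DNA. Most lie in clusters and lack introns, and they are transcribed in S phase under the coactivator NPAT; their mRNAs end in a stem-loop bound by SLBP in place of a poly(A) tail and are degraded when DNA synthesis stops. In the brain at this stage dividing progenitors line the ventricles and lose these mRNAs as they leave the cycle. The libraries were made from total RNA after ribosomal RNA depletion, a preparation that does not select for a poly(A) tail. In bulk tissue, fewer cells of a type and less RNA per cell cannot be told apart.

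Library totals ran from 3239117 to 7371483 counts with a median of 6212290, and the smallest count of any member in any library was 13. The targeted Gtf2i was at 624 ± 30.7 CPM (counts scaled to a common library size with TMM; SD, n = 3) in wt, 368 ± 6.23 in gtf2i and 82.5 ± 0.797 in gtf2i/gtf2i. Gtf2ird1 did not follow that pattern in its own cross: it was at 98.2 ± 13.52 CPM in wt, 149 ± 1.93 in ird1 and 223 ± 4.21 in ird1/ird1 (SD, n = 3), so its count went up with the number of ird1 alleles (ird1/ird1 over wt, log2 fold change 1.18, edgeR adjusted p = 3.92e-05). It also went up in the gtf2i cross, from 92.4 ± 7.32 CPM in wt to 136 ± 8.92 in gtf2i and 267 ± 20.98 in gtf2i/gtf2i (SD, n = 3), where gtf2i/gtf2i over wt was 1.52 (edgeR adjusted p = 5.61e-07). The 2 increases differed by 0.34 (edgeR adjusted p = 0.296), so a higher Gtf2ird1 count was not particular to the ird1 cross. The gtf2i/gtf2i libraries differed from wt at both genes, while Gtf2i in the ird1 cross stood at 614 CPM in wt and 599 in ird1/ird1. The labels do not say what the ird1 allele does to the transcript, and every direction given for that cross is a direction between libraries labelled ird1 or ird1/ird1 and those labelled wt. Neuronal markers (20 of 20 listed genes in the table) summed to 5892 to 8243 CPM per library and radial glia markers (15 of 16) to 3160 to 4301 CPM, so both classes of marker were present. Replicate 2 of the wt group of the ird1 cross stood apart before any comparison: it had the smallest total, it gave 43.5% of its member counts to H1 against 32.8% to 37.8% elsewhere, and 7.17% of its counts came from non-member transcripts shorter than 1000 bases, the highest share in a range that began at 3.79%. The main comparisons that use it are given with and without it.

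The members fell into 8 stretches of the genome when neighbours no more than 100000 bases apart were joined (positions and names matched to RefSeq, GRCm38.p6, the patched form of mm10). Chromosome 13 held 48 of them. Its main stretch, chr13:23531044-23764412, held 28 members and 67.5% of member counts, and chr13:21715711-21832197 held 13 members and 19.6%. A set of 5 lay at chr13:22035122-22043658, 4 at chr3:96219885-96263317, 3 at chr11:58948911-58955192 and 1, Hist4h4, at chr6:136803993-136804431. RefSeq lists 54 members as protein coding and 2, Hist1h2al and Hist3h2bb-ps, as pseudogenes.

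The sequence just before the start of these genes is shown for 1 gene of each core type, for an H1 gene, and for Hist3h2a, the member that departed most from the others in the comparisons that follow. Each is the 120 bases upstream of the RefSeq start on the gene's own strand, 5′ to 3′ (GRCm38.p6). Capitals mark matches, on either strand, to any of 6 motifs: the TATA box as TATAAA, the CCAAT box as the letters CCAAT, the octamer as ATTTGCAT, the H1 box as AAACACA, the core of the H4-specific element as GGTCCG, and the core described for GTF2IRD1 binding as GGATTA.
Hist1h1c, chr13:23738687-23738806, plus strand: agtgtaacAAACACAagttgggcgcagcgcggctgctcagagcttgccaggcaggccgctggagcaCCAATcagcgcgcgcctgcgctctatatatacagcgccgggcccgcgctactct
Hist1h2ai, chr13:21716292-21716411, plus strand: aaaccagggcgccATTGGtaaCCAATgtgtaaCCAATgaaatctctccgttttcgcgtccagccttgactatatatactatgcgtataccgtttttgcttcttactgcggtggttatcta
Hist1h2bb, chr13:23746614-23746733, plus strand: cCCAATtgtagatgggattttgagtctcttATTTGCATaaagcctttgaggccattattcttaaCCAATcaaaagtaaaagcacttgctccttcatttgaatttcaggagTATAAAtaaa
Hist1h3b, chr13:23752225-23752344, plus strand: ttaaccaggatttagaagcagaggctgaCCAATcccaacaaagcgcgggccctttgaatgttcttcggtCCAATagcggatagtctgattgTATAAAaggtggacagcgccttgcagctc
Hist1h4f, chr13:23551669-23551788, minus strand: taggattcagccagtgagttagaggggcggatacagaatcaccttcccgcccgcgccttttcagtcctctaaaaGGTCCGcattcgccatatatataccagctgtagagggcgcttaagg
Hist3h2a, chr11:58954565-58954684, plus strand: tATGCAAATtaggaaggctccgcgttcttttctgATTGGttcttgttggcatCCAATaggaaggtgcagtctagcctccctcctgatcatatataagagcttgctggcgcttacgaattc

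Over the 250 bases upstream, with both strands searched, 49 members had a RefSeq promoter entry and were set beside 32851 promoters. CCAAT was in 41 of the 49 (83.7%, against 33.8% of all promoters): in all 5 H1, 13 H2a, 13 H2b and 7 H3 members with an entry but in 3 of 11 H4 members. TATAAA was in 27 (55.1% against 12.4%). The octamer was in 12 (24.5% against 1.6%), 6 of them H2a and 6 H2b, and the printed windows of Hist1h2bb and Hist3h2a each carry one. The H1 box was in 7 (14.3% against 6.25%), 4 of them among the 5 H1 members, and Hist1h1c carries it near the upstream end of its window. GGTCCG was in 10 (20.4% against 6.72%), 8 of them among the 11 H4 members, and in Hist1h4f it is the only capitalised match. GGATTA was in 3 members (6.12%), a share close to the 6.25% of all promoters. Neighbouring H2a and H2b genes read in opposite directions from a shared stretch, so their matches are partly the same bases. Of the 7 such pairs with both entries, 2 had the octamer in both genes and 5 in neither. These are letter matches and not measured binding sites.

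The 5 H1 genes were among the most abundant members and took 35.8% of member counts; the 12 H4 genes took 28.1%, the 16 H2b genes 15.3%, the 9 H3 genes 13.2% and the 14 H2a genes 7.62%. All members together made up 0.934% to 1.69% of the counts of a library, with a median of 1.2%. Levels of different genes were compared as CPM per kilobase of the transcript length given in the table. On that scale the median member stood at 599 for H1, 290.5 for H4, 215 for H3, 164 for H2b and 99.7 for H2a. Among H1 genes, which encode the linker histone subtypes, Hist1h1b (ENSMUSG00000058773) stood at 1177 and Hist1h1a at 1065, while Hist1h1e stood at 547 and Hist1h1d at 102. The H4 genes all encode the same core histone; Hist1h4h stood at 1070.4 and Hist1h4k at 844, and the lowest were Hist4h4 at 127 and Hist1h4b at 140.5. Within H3 the order ran from Hist1h3e at 501 and Hist1h3c at 303 down to Hist1h3f at 195 and Hist1h3d at 134. Hist1h2bb at 492 and Hist1h2bk at 396 led the H2b genes, with Hist2h2be, which encodes an H2B form described in olfactory neurons, lowest of all members at 5.17 and Hist1h2ba, the testis H2B gene, at 23.1. Among H2a genes Hist1h2ak stood at 468 and Hist1h2ab at 326, and Hist2h2ab at 18.03 and Hist3h2a at 9.41 were lowest.

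The order of single genes on this scale rests on the length used. The table's lengths run from 312 to 7425 bases with a median of 536.5, and for 11 members they exceed 2 times the RefSeq gene span. With the RefSeq span as the length, Hist1h1d moved from 102 to 979 CPM per kilobase and Hist4h4 from 127 to 826. The type medians became 1102 for H1, 677 for H4, 273 for H3, 217 for H2b and 93.2 for H2a, which is the same order of types. How reads shared by near-identical copies were counted is not given, so this order describes the counts as deposited. For Hist1h2be and Hist1h2bp the RefSeq span takes in 37455 and 14079 bases, since it is a gene span and not a transcript, and the level became 3.30 and 1.05 CPM per kilobase from 49.4 and 23.7. Hist1h2al likewise moved from 283 to 32.1 and Hist1h2bc from 121 to 16.9, which completes the 4 members whose table length is under 0.5 times the RefSeq span.

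**Figure D1:**
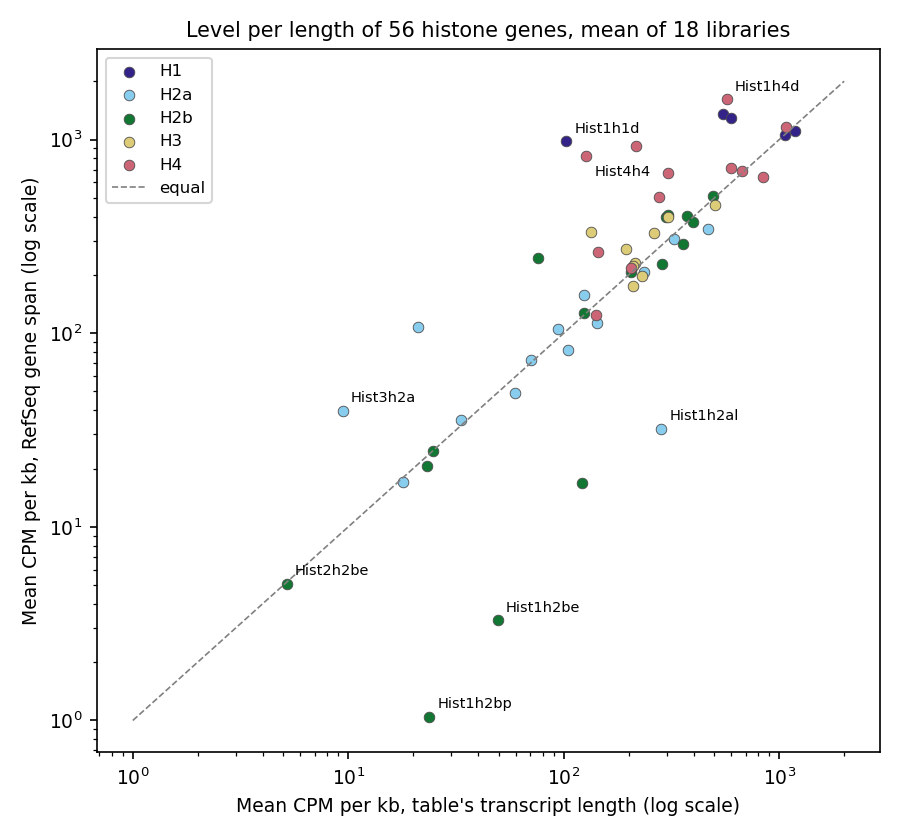
Mean CPM per kilobase of each of the 56 members over 18 libraries, with the table's transcript length on the x axis and the RefSeq gene span on the y axis (both log scales), coloured by histone type; the dashed line marks equal values. Most points lie near the line, Hist1h1d and Hist4h4 lie well above it, and Hist1h2be, Hist1h2bp, Hist1h2al and Hist1h2bc lie far below it.

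The summed level of all members varied among replicates of 1 group. In the gtf2i cross the sums were 12328, 11327 and 9159.7 CPM in wt, 11906, 10585 and 10380.5 in gtf2i, and 15116, 13899 and 9237 in gtf2i/gtf2i. Replicates 1 and 2 of gtf2i/gtf2i lay above every other library of the cross, and replicate 3 lay beside the lowest wt library. In the ird1 cross the sums were 13012, 17969.7 and 14578 CPM in wt, 11936, 13163 and 11761 in ird1, and 10048, 10154 and 13015 in ird1/ird1. Replicate 2 of wt was the highest of the 18, and replicate 3 of ird1/ird1 lay level with the lowest wt library. The group means were 10938 ± 1620, 10957 ± 828 and 12751 ± 3103 CPM (SD, n = 3) for wt, gtf2i and gtf2i/gtf2i, and 15187 ± 2534, 12287 ± 764 and 11072 ± 1683 for wt, ird1 and ird1/ird1. Without replicate 2 the wt mean of the ird1 cross was 13795 CPM over the remaining 2 libraries.

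**Figure D2:**
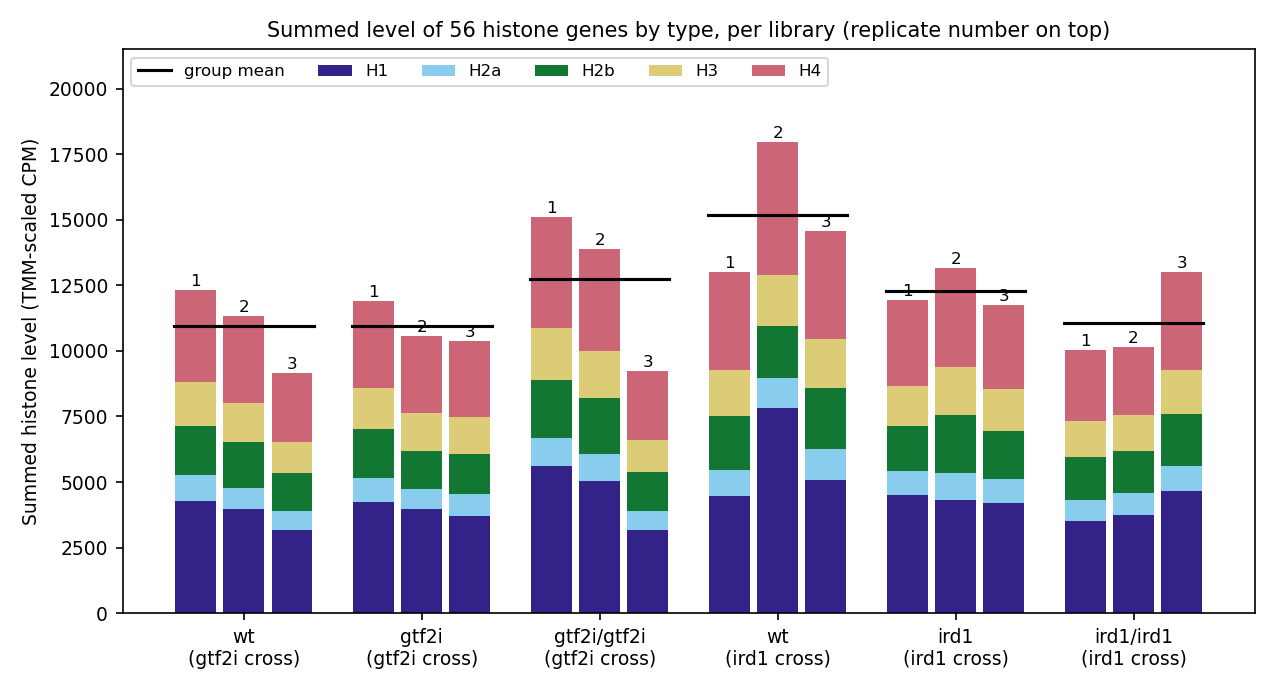
Summed CPM of the 56 members in each library, as bars stacked by histone type with the replicate number on top, and the mean of each group of 3 as a black line. The gtf2i/gtf2i bars span 9237 to 15116 CPM, and the tallest bar is replicate 2 of wt in the ird1 cross at 17969.7 CPM, where the H1 part is enlarged.

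The members went up and down together from library to library. Taken as deviations of log2 CPM from the group mean over the 18 libraries, a member correlated with the summed level of the other members at a median r of 0.829; 31 members were over 0.8 and 3 were under 0. Those 3 were Hist3h2a (r = -0.39), Hist2h2be (-0.36) and Hist1h2ag (-0.03). Without replicate 2 of wt of the ird1 cross the median r over 17 libraries was 0.912 and 41 members were over 0.8, while Hist3h2a (-0.13) and Hist2h2be (-0.10) remained under 0 and Hist1h2ag stood at 0.59. These points share their libraries and depth, and the median r of all other genes with the same sum was -0.02. Non-member genes with a transcript under 1000 bases moved with the members in some libraries. Their median deviation was -0.17 in replicate 3 of gtf2i/gtf2i (members -0.39) and 0.12 in replicate 3 of ird1/ird1 (members 0.21). It was 0.003 in replicate 1 of gtf2i (members 0.15) and -0.03 in replicate 2 of wt of the gtf2i cross (members 0.06). The non-members with the highest r over 18 libraries were Spc24 (0.952), H2afv (0.94), Scarna13 (0.931), Trip6 (0.926), Phf19 (0.926), Eif3g (0.916), Eif4a3 (0.912), Gatad2a (0.911), Sod1 (0.908) and Hes5 (0.908). Spc24 encodes a kinetochore subunit, H2afv a variant of H2A and Hes5 a Notch target of neural progenitors. The median SD of log2 CPM within a group was 0.233 for members and 0.168 for all genes.

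**Figure D3:**
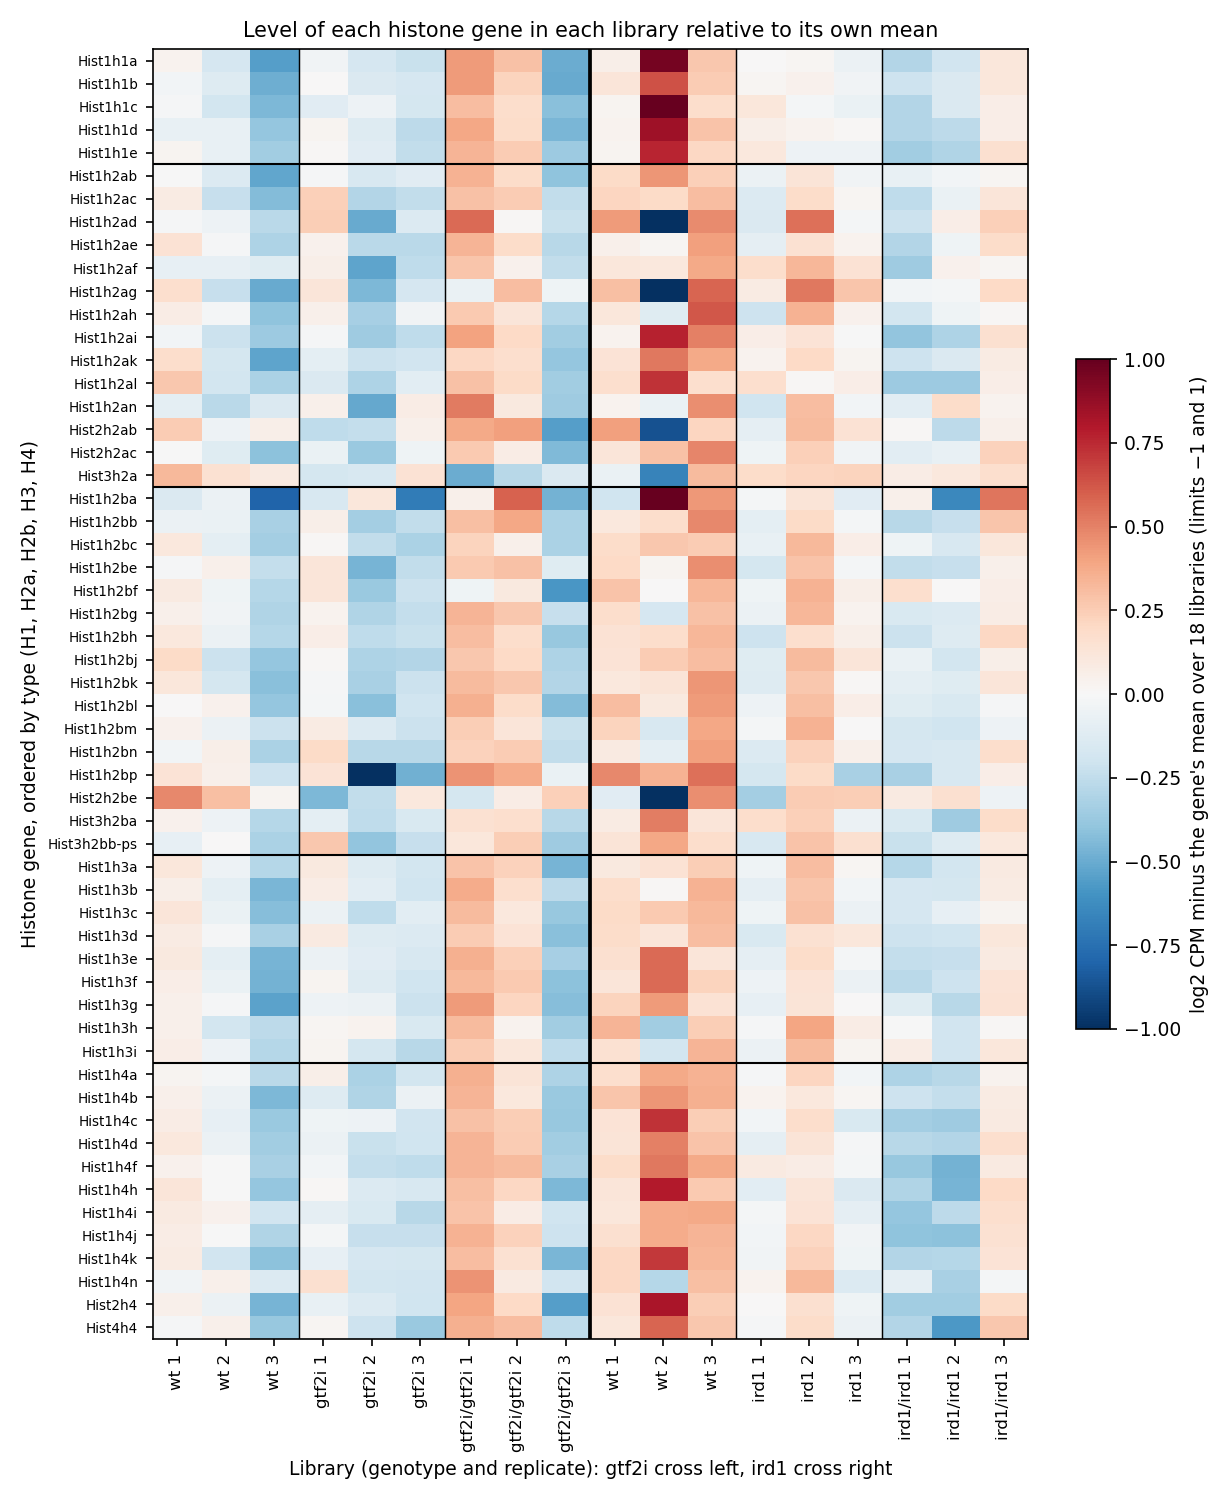
Log2 CPM of each member minus its mean over the 18 libraries, members in rows by histone type and libraries in columns by group, with colours limited to -1 and 1. Most rows change colour together from library to library, while Hist3h2a and Hist2h2be differ from the rows around them, and replicate 2 of wt in the ird1 cross is dark in both colours.

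In the gtf2i cross most histone genes stood slightly above wt in gtf2i/gtf2i brain, and none was called. Of 56 members, 53 had a log2 fold change above 0, where 50.4% of all genes did, and the median was 0.19 against 0.00 for all genes. The medians by type were 0.25 for H1, 0.15 for H2a, 0.17 for H2b, 0.14 for H3 and 0.19 for H4. With edgeR's quasi-likelihood test and an adjusted p under 0.05 as the threshold, 0 members were called, as against 0.94% of all genes. At an unadjusted p under 0.05, 0 members were higher (6.08% of all genes) and 1, Hist3h2a, was lower (8.3%). DESeq2 also called 0 members, and 2.75% of all genes.

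Among the linker histones, Hist1h1a (ENSMUSG00000049539, chr13:23763668-23764412) was at 784, 683 and 523 CPM in wt, 747, 683 and 655 in gtf2i, and 1031, 940.4 and 544 in gtf2i/gtf2i. The groups overlapped because replicate 3 of gtf2i/gtf2i lay among the wt libraries. The log2 fold change of gtf2i/gtf2i over wt was 0.33 (edgeR, SE 0.189, adjusted p = 0.47). Hist1h1e (ENSMUSG00000051627, chr13:23621777-23622558) followed the same course, at 1053, 984 and 812 CPM in wt and 1309.7, 1235 and 807 in gtf2i/gtf2i. Its log2 fold change was 0.23 (edgeR, SE 0.152, adjusted p = 0.565). Both values turned on single libraries: Hist1h1a was at 0.15 without replicate 1 of gtf2i/gtf2i and 0.57 without replicate 3, and Hist1h1e at 0.10 and 0.42.

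The core histone genes given here showed the same arrangement of libraries, though not every core member did. Hist1h2bf, for example, was at 59.7, 54.6 and 46.1 CPM in wt and 54.5, 60.3 and 37.5 in gtf2i/gtf2i. Hist1h2ai (ENSMUSG00000071516, chr13:21716412-21716859), an H2a gene, was at 88.7, 78.0 and 70.3 CPM in wt, 89.8, 70.7 and 75.8 in gtf2i and 119.6, 104 and 71.3 in gtf2i/gtf2i. Replicate 3 of gtf2i/gtf2i again lay within the wt range, and the log2 fold change was 0.30 (edgeR, SE 0.158, adjusted p = 0.414). Hist1h3b (ENSMUSG00000069267, chr13:23752345-23752840), an H3 gene, was at 167, 150.2 and 117 CPM in wt and 208, 181 and 134 in gtf2i/gtf2i, a log2 fold change of 0.26 (edgeR, SE 0.151, adjusted p = 0.483). Hist4h4 (ENSMUSG00000096010), the H4 gene that lies alone on chromosome 6, was at 352, 369 and 273 CPM in wt and 454, 439 and 298 in gtf2i/gtf2i. Its log2 fold change of 0.25 (edgeR, SE 0.153, adjusted p = 0.499) was of the size found for genes of the large clusters. The testis gene Hist1h2ba (ENSMUSG00000050799) was low, at 7.5, 7.93 and 4.75 CPM in wt and 8.59, 12.5 and 5.95 in gtf2i/gtf2i, and its groups overlapped (log2 fold change 0.39, SE 0.288, edgeR adjusted p = 0.606). Without replicate 3 of gtf2i/gtf2i the log2 fold changes of Hist1h2ai, Hist1h3b, Hist4h4 and Hist1h2ba were 0.50, 0.43, 0.43 and 0.65, the highest with any 1 library left out. The lowest were 0.13 and 0.11 for Hist1h2ai and Hist1h3b without replicate 1 of gtf2i/gtf2i, 0.14 for Hist4h4 without replicate 3 of wt and 0.12 for Hist1h2ba without replicate 2 of gtf2i/gtf2i.

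Hist3h2a, the H2a gene on chromosome 11 (ENSMUSG00000078851, chr11:58954685-58955192), lay the other way. It was at 24.8, 22.1 and 21.2 CPM in wt, 17.6, 17.8 and 22.0 in gtf2i, and 14.1, 16.4 and 18.01 in gtf2i/gtf2i. All 3 gtf2i/gtf2i libraries were below all 3 wt libraries, and Hist3h2a was the only member without overlap between these groups, where 8.98% of all genes were lower without overlap. Its log2 fold change was -0.49 (edgeR, SE 0.148, unadjusted p = 0.00512, adjusted p = 0.121). Hist2h2be, on chromosome 3, was at 18.3, 16.2 and 13.4 CPM in wt, 9.67, 11.1 and 14.2 in gtf2i and 11.7, 13.9 and 15.6 in gtf2i/gtf2i; the groups overlapped. Its log2 fold change was -0.22 in gtf2i/gtf2i (edgeR, SE 0.183, adjusted p = 0.663) and -0.44 in gtf2i (edgeR, SE 0.184, unadjusted p = 0.0307, adjusted p = 1). The first of these was -0.11 without replicate 1 of wt and -0.33 without replicate 3 of wt.

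Replicate 3 of gtf2i/gtf2i decided the count of calls. Without it, 22 members were called in gtf2i/gtf2i against wt with edgeR (9.9% of all genes were), 21 higher, all 5 H1 genes among them, and 1, Hist3h2a, lower; the median was then 0.36. Without replicate 1 of gtf2i/gtf2i edgeR called 0 members (0.564% of all genes) and the median was 0.05. The number in the sample titles was shared by 1 library of each genotype in this cross. Within number 11619 the gtf2i/gtf2i library was above its wt partner in 48 of 56 members (median 0.14), within 12301 in 53 (median 0.38) and within 12419 in 31 (median 0.02). With this number as a block edgeR called 0 members and 5.33% of all genes, while 14 members passed an unadjusted p of 0.05 (18.9% of all genes).

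In gtf2i heterozygotes the histone genes lay on both sides of wt. Here 23 members were above 0 (49.6% of all genes) and 33 below (50.4%), the median was -0.02, and edgeR called 0 members and 0.00854% of all genes. At an unadjusted p under 0.05, 1 member, Hist2h2be, was lower (0.974% of all genes), and DESeq2 called 0 members and 0.0512% of all genes. The balance turned with the transcript length and with the title number. After each library's trend with transcript length was removed, 42 members were above 0 and the median was 0.07. Within number 11619 the gtf2i library was below its wt partner in 55 members (median -0.26), while within 12301 and within 12419 it was above in 42 (median 0.08 in both). Set against gtf2i instead of wt, the same gtf2i/gtf2i libraries were higher in 54 members (51.5% of all genes), with a median of 0.20; edgeR called 0 members and 3.12% of all genes, DESeq2 called 0 members and 4.3% of all genes, and 4 members were higher at an unadjusted p under 0.05 (7.14% of all genes). The H2b gene Hist1h2bp was at 15.7, 6.99 and 10.2 CPM in gtf2i and 19.4, 18.5 and 13.6 in gtf2i/gtf2i. The groups overlapped through replicate 1 of gtf2i, and the log2 fold change was 0.63 (edgeR, SE 0.238, adjusted p = 0.192), which became 0.97 without that library and 0.40 without replicate 2 of gtf2i. With the title number as a block 2 members were called in this comparison, Hist1h2be and Hist1h2bp (7.62% of all genes were). Without gtf2i/gtf2i replicate 3 the number was 28 (11.8% of all genes). The median over gtf2i was then 0.39, it was 0.06 without gtf2i/gtf2i replicate 1, and 0.10 with the length trend removed. By title number the gtf2i/gtf2i library was above its gtf2i partner in 54 members within 11619 (median 0.38) and in 52 within 12301 (median 0.30), but below it in 37 within 12419 (median -0.07).

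In the ird1 cross the histone genes stood below wt in libraries labelled ird1/ird1, and again none was called. Of 56 members, 54 had a log2 fold change below 0, where 50.5% of all genes did, with a median of -0.34. The median was -0.59 for H1, -0.30 for H2a, -0.31 for H2b, -0.31 for H3 and -0.50 for H4. At an unadjusted p under 0.05, 40 members were lower (8.4% of all genes): 5 of 5 H1, 7 of 14 H2a, 10 of 16 H2b, 7 of 9 H3 and 11 of 12 H4 members. In 21 members all 3 ird1/ird1 libraries were below all 3 wt libraries (11.8% of all genes). After adjustment edgeR called 0 members and 0.00854% of all genes, and DESeq2 called 0 members and 0.00854%.

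**Figure D4:**
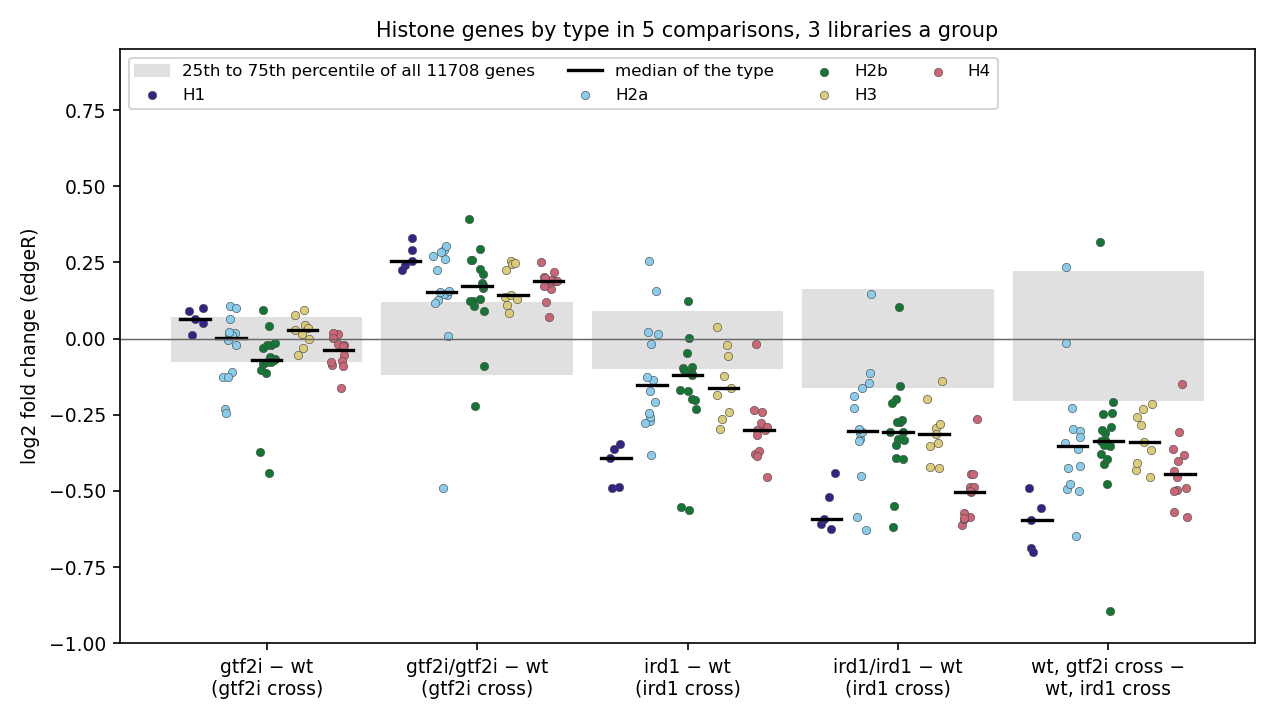
Log2 fold change of each member (points, by histone type) in 5 comparisons of groups of 3 libraries, with the median of each type as a black line and the grey band running from the lower to the upper quartile of all genes. Points lie mostly above the band's centre in gtf2i/gtf2i against wt and below it in ird1/ird1 against wt and in wt against wt, and no member passed an adjusted p of 0.05.

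The H4 gene Hist1h4f (ENSMUSG00000069274, chr13:23551286-23551668) was at 293, 372 and 335 CPM in wt, 274, 272 and 255 in ird1, and 199, 186 and 275 in ird1/ird1. No ird1/ird1 library reached the wt range, nor did any ird1 library. Its log2 fold change of ird1/ird1 over wt was -0.61 (edgeR, SE 0.132, unadjusted p = 0.000303, adjusted p = 0.296). Hist1h2bp (ENSMUSG00000069308) was at 19.9, 18.1 and 20.9 CPM in wt, 12.6, 16.2 and 11.4 in ird1 and 11.4, 12.7 and 15.0 in ird1/ird1. Both labelled mutant groups lay wholly below wt, with log2 fold changes of -0.55 in ird1 (edgeR, SE 0.166, adjusted p = 0.997) and -0.62 in ird1/ird1 (edgeR, SE 0.168, adjusted p = 0.296).

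The linker histone values, and some core histone values, leaned on the library that stood apart. Hist1h1c (ENSMUSG00000036181, chr13:23738807-23739531) was at 925, 1896 and 1024 CPM in wt, 984, 896 and 865 in ird1, and 739.8, 820.5 and 952 in ird1/ird1. Replicate 2 of wt was far above all others, and replicate 3 of ird1/ird1 overlapped the wt range. Its log2 fold change was -0.63 (edgeR, SE 0.203, adjusted p = 0.296) and -0.23 without that wt library. Hist1h1e was at 1055, 1759 and 1193 CPM in wt and 814, 842 and 1160.3 in ird1/ird1, a log2 fold change of -0.52 (edgeR, SE 0.171, adjusted p = 0.296) that was -0.27 without the same library. Core histone genes leaned on it to differing degrees. Hist1h2ba was at 7.23, 21.7 and 11.2 CPM in wt and 8.59, 5.31 and 12.0 in ird1/ird1, a log2 fold change of -0.55 (edgeR, SE 0.335, adjusted p = 0.375) that was -0.11 without the library. Hist1h2ai was at 92.7, 154 and 128 CPM in wt, 94.6, 99.7 and 90.1 in ird1 and 68.8, 73.2 and 101 in ird1/ird1, a log2 fold change of -0.63 (edgeR, SE 0.167, adjusted p = 0.296) that became -0.45. The H3 gene Hist1h3f was at 264, 359 and 282 CPM in wt and 201, 210.0 and 267 in ird1/ird1, a log2 fold change of -0.43 (edgeR, SE 0.13, adjusted p = 0.296) that became -0.28.

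Hist3h2a and Hist2h2be again stood apart from the other members. In the ird1 cross Hist3h2a was at 19.0, 12.5 and 24.7 CPM in wt, 22.6, 23.1 and 23.2 in ird1 and 20.9, 21.4 and 22.4 in ird1/ird1. Replicate 2 of wt, the highest of the 18 libraries for 25 members, was the lowest for this gene. The log2 fold change was 0.15 (edgeR, SE 0.173, adjusted p = 0.637), and -0.02 without that library. Hist2h2be was at 12.2, 6.25 and 18.2 CPM in wt and 14.0, 14.7 and 12.7 in ird1/ird1, a log2 fold change of 0.10 (edgeR, SE 0.254, adjusted p = 0.836) that became -0.12 without the same library. That wt library was also the lowest of the 18 for 3 other H2a members, Hist1h2ad, Hist1h2ag and Hist2h2ab, so the library that stood apart was not uniformly high in histone RNA.

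Without replicate 2 of wt, all 56 members were below wt in ird1/ird1, 48 had an unadjusted p under 0.05 (7.49% of all genes, in either direction), the median was -0.34, and edgeR called 0 members (0.00854% of all genes). The type medians were then -0.27 for H1, -0.35 for H2a, -0.30 for H2b, -0.30 for H3 and -0.40 for H4, so the H1 value was the one that moved most. In 33 members the remaining libraries did not overlap (15.1% of all genes). Titles in this cross carry 2 numbers, and libraries with the same number did not deviate together. Within 11610, which holds 2 wt and 2 ird1/ird1 libraries, the mean was lower in ird1/ird1 for 56 of 56 members (median -0.42); within 11902, which holds 1 of each, 37 were lower (median -0.20), and its wt library is replicate 2. Transcript length moved with the result: among 421 non-member genes with a transcript under 1000 bases, 346 were also below wt in ird1/ird1, with a median of -0.19 and 90 lower at an unadjusted p under 0.05 (8.4% of all genes were). Without replicate 2 of wt 334 of these genes were below (median -0.14), and 56 were lower at an unadjusted p under 0.05 (13.3%, against 3.89% of all genes). After each library's trend with transcript length was removed, the members' median was -0.16, 46 were below 0 and 24 had an unadjusted p under 0.05 (13% of all genes). The part of RNA size in the result was not otherwise tested.

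Libraries labelled ird1, the heterozygotes, lay between. In them 49 members were below wt (51.1% of all genes), with a median of -0.20; 16 were lower at an unadjusted p under 0.05 (1.73% of all genes), 9 were lower without overlap (3.89%), and edgeR called 0 members and 0% of all genes, while DESeq2 called 0 members and 0.00854% of all genes. Removing the length trend took the median to -0.10 and the members at an unadjusted p under 0.05 to 9 (3.02% of all genes). Without replicate 2 of wt, 54 members were below and 5 had an unadjusted p under 0.05 (2.43% of all genes). Set against ird1, the ird1/ird1 libraries were lower in 55 members (50.9% of all genes), with a median of -0.16 and 4 members at an unadjusted p under 0.05 (1.82%). In 3 members the groups did not overlap (8.54% of all genes were lower without overlap), and edgeR called 0 members and 0% of all genes, with 0 members and 0.00854% of all genes called by DESeq2. The median was -0.09 with the length trend removed. Within number 11610 the ird1/ird1 mean was lower in 56 members (median -0.31), but within 11902 it was higher in 50 (median 0.18). Comparisons within a cross share their libraries, so each is given for itself.

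The effects of the homozygous genotypes were then set against each other in a fit of all 18 libraries, as gtf2i/gtf2i over its wt minus ird1/ird1 over its wt. The difference was above 0 for 54 members (48.4% of all genes), with a median of 0.55. At an unadjusted p under 0.05, 35 members were higher (6.48% of all genes) and 1, Hist3h2a, lower (6.47%). After adjustment edgeR called 0 members and 0.171% of all genes; DESeq2 called 1 member and 0.717% of all genes. The difference was 0.83 for Hist1h4f (edgeR, SE 0.22, adjusted p = 0.143), 0.93 for Hist1h2ai (edgeR, SE 0.257, adjusted p = 0.172) and -0.64 for Hist3h2a (edgeR, SE 0.233, adjusted p = 0.271). Without replicate 2 of wt of the ird1 cross these were 0.74, 0.76 and -0.47, the members' median was 0.51, and edgeR called 0 members (0.145% of all genes). Transcript length moved with this result too: with the length trend removed 51 members were above 0 and their median was 0.32, and of the 421 short non-member genes 327 were above 0 (median 0.20), or 318 without that wt library (median 0.15). With the title number as a block, a number that did not pair libraries in the ird1 cross, 5 members were called (0.709% of all genes), and without gtf2i/gtf2i replicate 3 the number was 33 (6.18%).

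The wt groups also stood apart from each other. In wt of the gtf2i cross 54 members were below wt of the ird1 cross (51.2% of all genes), with a median of -0.37, where the medians of gtf2i/gtf2i and ird1/ird1 over their own wt were 0.19 and -0.34. In 34 members the groups did not overlap in that direction (15.6% of all genes), and 35 were lower at an unadjusted p under 0.05 (15.6%). With edgeR 0 members and 0% of all genes were called, the smallest member adjusted p being 0.0689, while DESeq2 called 16 members and edgeR called 22 without replicate 1 of wt of the gtf2i cross (13.3% and 17.7% of all genes). Hist1h2ai, at 88.7, 78.0 and 70.3 CPM in wt of the gtf2i cross and 92.7, 154 and 128 in wt of the ird1 cross, had a log2 difference of -0.65 (edgeR, SE 0.182, adjusted p = 0.0689) that was -0.48 without replicate 2 of wt of the ird1 cross. Without that library 54 members were below (median -0.34), 27 were lower at an unadjusted p under 0.05 (6.83% of all genes), 46 did not overlap in that direction (19.2%), and edgeR called 0 members (0% of all genes). Of the 421 short non-member genes, 343 were below in the same direction (median -0.22), and with the length trend removed the members' median was -0.17. Neither wt group carries a labelled mutant allele, so the cross and whatever else differed between the sets of libraries cannot be told apart.

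The medians of the larger stretches lay close together. In gtf2i/gtf2i against wt the 3 chromosome 13 stretches with 5 or more members had medians of 0.18, 0.18 and 0.22, and in ird1/ird1 against wt -0.39, -0.31 and -0.35. An H2a and an H2b gene lay side by side, 163 to 248 bases apart, in 10 pairs. In 7 of them both neighbours had the same sign in gtf2i/gtf2i against wt, as did 8 in ird1/ird1 against wt. Nearly all members shared a sign in each of these comparisons, so most pairs of any members would agree. The counts therefore say nothing about neighbours as such. The exceptions in the first comparison were Hist3h2a (-0.49) beside Hist3h2bb-ps (0.13), Hist2h2be (-0.22) beside Hist2h2ac (0.15) and Hist1h2bf (-0.09) beside Hist1h2ad (0.26). These 3 were also the only members below 0 in that comparison, and they sat 172, 191 and 173 bases from neighbours that were above it.

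Genes that act with the histone genes were read from lists for the same comparisons, chosen with earlier results known. In gtf2i/gtf2i against wt, 41 of 44 other S-phase genes were above 0 (median 0.21, 11 higher at an unadjusted p under 0.05, where 6.08% of all genes were) and 43 of 44 G2/M genes (median 0.25, 9 higher), with 0 called in either list by edgeR. Of 23 histone mRNA processing genes 14 were above 0 (median 0.04), of 11 replication-independent variant histone genes 10 (median 0.06), and of 20 chaperone genes 18 (median 0.07). The S-phase genes summed to 2783, 2758 and 2512 CPM in wt and 3473, 3285 and 2609 in gtf2i/gtf2i, with replicate 3 of gtf2i/gtf2i again within the wt range. Slbp, whose product binds the histone stem-loop, had a log2 fold change of 0.15 (edgeR adjusted p = 0.675), Npat 0.07 (0.857) and Casp8ap2, a component of histone locus bodies, 0.28 (0.665). The replication clamp gene Pcna was at 0.10 (edgeR adjusted p = 0.796), the proliferation marker Mki67 at 0.32 (0.401), and the variant genes H3f3b and H2afz at 0.00 (0.999) and 0.06 (0.892). With 1 library left out Casp8ap2 ran from 0.0053 (without replicate 1 of wt) to 0.44 (without replicate 3 of wt) and Mki67 from 0.18 (without replicate 1 of wt) to 0.41. Without replicate 1 and without replicate 3 of gtf2i/gtf2i Slbp stood at 0.043 and 0.26, Pcna at 0.033 and 0.24, and Npat at 0.13 and 0.020.

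In ird1/ird1 against wt the S-phase and G2/M lists did not lie with the histone genes. There 24 of 44 S-phase genes were above 0 (median 0.03) and 30 of 44 G2/M genes (median 0.09). The processing list had 11 of 23 above (median -0.03) and the chaperones 10 of 20 (median 0.00). The variant histones were below wt in 11 of 11 (median -0.15, 4 lower at an unadjusted p under 0.05, against 8.4% of all genes), and 0 genes of these lists were called by edgeR. S-phase genes summed to 2734, 2719 and 2966 CPM in wt and 2609.6, 3006 and 2827 in ird1/ird1, which overlap, and replicate 2 of wt, the highest for summed histone genes, was the lowest of the wt libraries. Npat was at a log2 fold change of 0.42 (edgeR adjusted p = 0.305), Slbp at 0.09 (0.706), Casp8ap2 at 0.26 (0.414), Pcna at 0.07 (0.766), Mki67 at 0.22 (0.454), H3f3b at -0.03 (0.85) and H2afz at -0.24 (0.379). Without replicate 2 of wt Npat was at 0.26, Casp8ap2 at 0.11 (0.41 without replicate 1 of wt) and Mki67 at 0.076. Slbp was at 0.013 without replicate 2 of ird1/ird1 and 0.15 without replicate 3, and H2afz at -0.088 without replicate 1 of ird1/ird1 and -0.36 without replicate 3.

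Markers of cell types moved beside the histone values in gtf2i/gtf2i against wt. Of 20 neuron markers 3 were above 0 (median -0.21), and 3 fell with edgeR: Neurod6 by 1.30 on the log2 scale (adjusted p = 0.000533), Bcl11b by 0.67 (0.0206) and Tbr1 by 0.65 (0.00154), all genes of cortical projection neurons. Of 15 radial glia markers 10 were above 0 (median 0.11) with 0 called. Of 9 red blood cell genes 8 were above 0 (median 0.41), and Hbb-y, an embryonic globin gene, rose by 0.76 (edgeR adjusted p = 0.0392) and Slc4a1 by 0.83 (0.0379). The calls of Hbb-y, Slc4a1 and Bcl11b were lost when only the compared groups were fitted, and in 3, 4 and 3 of the 6 fits that left out 1 library. Mesenchyme markers were above 0 in 14 of 17 (median 0.30), microglia markers in 5 of 5 (median 0.32), endothelial markers in 7 of 14 and choroid plexus markers in 4 of 6, where Ttr fell by 1.63 (edgeR adjusted p = 0.000532). Set against gtf2i, the same gtf2i/gtf2i libraries had calls in more of the markers and in more of all genes (3.12% against 0.94%). Of 9 red blood cell genes 5 rose with edgeR: Slc4a1 by 1.17 (adjusted p = 0.00345), Hba-x by 1.02 (0.0133), Hbb-y by 0.98 (0.00589), Hba-a1 by 0.63 (0.0482; 0.41 without replicate 2 of gtf2i/gtf2i) and Alas2 by 0.52 (0.0383). Of 15 radial glia markers 3 rose: Hes5 by 0.57 (edgeR adjusted p = 0.0267), Vim, also a mesenchyme marker, by 0.40 (0.0346) and Nes by 0.36 (0.0421). The mesenchyme gene Lum rose by 0.53 (edgeR adjusted p = 0.0368) and the endothelial glucose transporter gene Slc2a1 by 0.49 (0.0316). Of 20 neuron markers 4 fell: Neurod6 by 1.52 (edgeR adjusted p = 0.000104), Bcl11b by 0.80 (0.00465), Tbr1 by 0.78 (0.000209) and Mapt by 0.70 (0.0358), and Ttr fell by 1.95 (8.77e-05). In that comparison 43 of 44 S-phase genes (median 0.16) and 44 of 44 G2/M genes (median 0.18) were above 0, with 0 called. In ird1/ird1 against wt, 16 of 20 neuron markers (median 0.13), 10 of 15 radial glia markers (median 0.04) and 7 of 9 red blood cell genes (median 0.04) were above 0. The part of cell makeup in the histone values was not tested.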

How the data were processed

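Counts of reads per gene for 18 RNA-seq libraries were used as deposited by the authors in 1 table, which also gives a transcript length per gene; this length was used as another measure (no unit stated, read as bases). Per the submitters' processing notes the tools were Trimmomatic, STAR and HTSeq with mm10; versions, strand setting and the treatment of reads that map to several places are not given in the sources used here, so near-identical histone copies, and antisense reads, cannot be told apart. Every gene of the table passed edgeR's filterByExpr, and the smallest count in each library came to 2.9 to 3.09 CPM of its total. Genes below that level were therefore not analysed here. There were also 14 RefSeq histone genes with no row, and the reason for their absence is not given. The 32 chromatin samples were not analysed here.

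Members and lists were chosen with earlier results of these data known. Counts were scaled by TMM and tested with edgeR 4.0.16 (glmQLFit, glmQLFTest; R 4.3.3), 1 fit of the 3 groups per cross (6 residual degrees of freedom), or of all 18 libraries for comparisons between crosses, with Benjamini-Hochberg adjustment over 11708 genes and a threshold of 0.05. DESeq2 1.42.0 was an alternative, limma 3.58.1 is the package edgeR rests on, and log2 CPM used a prior count of 2. The length trend was a smooth curve (loess), over non-members, of each library's deviation from the gene's mean on log2 transcript length. It was read at the length the table gives, also for the 11 members where that exceeds 2 times the RefSeq span. On simulated counts the fit was checked for recovery of known changes. Genes named are, per histone type, those highest and lowest per length and those with the largest rise and fall in each homozygous comparison, any member called, list genes called, 7 fixed genes, and the 10 non-members most like the summed level. Nothing in the labels says that replicates were separate animals, so p-values measure the spread between these samples, which may be technical.

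The titles' number was checked as a pairing. In the gtf2i cross, deviations of libraries with the same number had r of 0.377, 0.103 and 0.520 between gtf2i/gtf2i and wt. Between gtf2i and wt r was 0.354, 0.048 and 0.280, and between gtf2i/gtf2i and gtf2i 0.114, 0.058 and 0.061. Libraries of differing numbers had a mean r of -0.11 (-0.44 to 0.20), a range that takes in some of the same-number values. In the ird1 cross the number did not pair libraries: the mean r was 0.013 within 11610 (-0.30 to 0.29), 0.001 within 11902 and -0.008 between numbers, so its block and splits there are descriptions. What the number stands for is not stated. Replicates differed beyond sampling noise in all 18 pairs within groups (chi-square over degrees of freedom 2.9 to 29.5). edgeR put the biological coefficient of variation at 10.4% for gtf2i libraries and their wt, and at 10.0% for the others; counting error alone was 27.7% for the smallest member count.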

Additional observations from a re-analysis of the deposited data

Results flagged for a closer look

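The effects of gtf2i/gtf2i and ird1/ird1, each over its own wt, differed for Gtf2i itself by -2.88 on the log2 scale in a test of the difference with edgeR. They also differed in the same test for Neurod6, a gene of cortical projection neurons, by -1.38. No histone member passed that test.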

How the results depend on the processing

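Histone members called with edgeR numbered 0 in every comparison, and these alternatives moved that count. For gtf2i/gtf2i against wt it was 1 (Hist3h2a; 7.42% of all genes were called) with the replicate block and a length correction together, 0 with the block alone, and 0 to 22 with each library left out, the highest with replicate 3 of gtf2i/gtf2i dropped. For gtf2i/gtf2i against gtf2i it was 2 with the block (7.62% of all genes), 1 with block and length correction together (9.56%), and 0 to 28, the highest when replicate 3 of gtf2i/gtf2i was dropped (11.8% of all genes; dropping replicate 1 of gtf2i gave 1, with 2.93%). For the difference of the effects it was 1 with DESeq2 (0.717% of all genes), 5 with the block (0.709%), 3 with block and length correction together (0.794%), and 0 to 33, the highest again with replicate 3 of gtf2i/gtf2i dropped. For wt against wt it was 16 with DESeq2 (13.3% of all genes) and 0 to 22, with 22 when wt replicate 1 of the gtf2i cross was dropped (17.7%) and 13 when wt replicate 1 of the ird1 cross was (8.81%). For gtf2i against wt, ird1/ird1 against wt, ird1 against wt and ird1/ird1 against ird1 it was 0 in each library left out. The block changed no other call of a member.

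Removing the length trend moved the members' median to -0.16 for ird1/ird1 against wt (-0.16 with the block too), 0.32 for the difference of the effects (0.31 with the block) and -0.17 for wt against wt. It moved the other medians less in size: to 0.13 for gtf2i/gtf2i against wt, 0.10 against gtf2i, -0.10 for ird1 against wt and -0.09 for ird1/ird1 against ird1, and it turned the median of gtf2i against wt from -0.02 to 0.07. With a library left out the median ran from 0.05 to 0.36 for gtf2i/gtf2i against wt, from -0.13 to 0.09 for gtf2i against wt, from 0.06 to 0.39 for gtf2i/gtf2i against gtf2i, from -0.43 to -0.30 for ird1/ird1 against wt, from -0.31 to -0.13 for ird1 against wt, from -0.27 to -0.08 for ird1/ird1 against ird1, from 0.40 to 0.72 for the difference of the effects and from -0.47 to -0.27 for wt against wt. The RefSeq gene span as the length, chosen after seeing the data, moved the medians per kilobase to 1102 (H1), 217 (H2b), 273 (H3) and 677 (H4).

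Values near 0 changed sign. For gtf2i/gtf2i against wt, H3f3b was -0.0011 without TMM and -0.043 to 0.072 with a library left out, and H2afz -0.019 to 0.17. For ird1/ird1 against wt, H3f3b was 0.0059 without TMM, 0.0191 with the length trend removed, 0.0174 with the block too, and -0.088 to 0.013 with a library left out; without wt replicate 2 of that cross Hist3h2a was -0.017, Hist2h2be -0.12 and Pcna -0.045, where leaving out the others took them up to 0.39, 0.48 and 0.22.

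Of the 15 marker genes called in gtf2i/gtf2i against gtf2i, Ttr, Slc4a1, Bcl11b, Tbr1 and Neurod6 kept their calls in all 11 alternatives and all 6 fits without 1 library. The calls of Alas2, Hba-a1, Lum and Nes were lost in 1 or 2 of the 11, and those of these 4 and of Hbb-y, Hba-x, Vim, Slc2a1, Hes5 and Mapt in 2 to 5 of the 6.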
